A study of Mus musculus with 10 samples.

Results

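Amino acid transporters were followed through 10 genes that move cationic, large neutral and small neutral amino acids, glutamine and cystine across the plasma membrane. The genes were taken by symbol from the deposited table of estimated counts, where all 10 of the listed symbols matched 1 Ensembl gene each among 52178 genes. The RNA came from pancreatic islets, where insulin and glucagon are made, of male C57Bl/6 retired breeder mice, and the medium of all islets held 11 mM glucose. The exercise group (libraries exercise 6 to 10) had first had 3 days to get used to a treadmill, and then 2 weeks with 5 weekly sessions of 1 h, at a speed of 17 cm/s and an incline of 5 degrees. The sedentary group (libraries sedentary 1 to 5) had the same strain, sex, breeder status and islet medium without this training. Whether every library is a different animal is not in the labels, and p-values therefore cover differences between libraries, some of which may be technical.

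Cells take up amino acids through several families of solute carriers. Cationic carriers bring in arginine and lysine, exchangers built from a shared heavy chain and a specific light chain trade intracellular amino acids for leucine or cystine, and sodium-coupled carriers accumulate small neutral amino acids and glutamine. In beta cells, amino acids feed insulin synthesis and leucine and arginine promote insulin release. When amino acids run short or unfolded protein accumulates, kinases phosphorylate the initiation factor eIF2alpha and the transcription factor ATF4 is translated more. ATF4 is known to induce several of these transporters together with enzymes of amino acid synthesis.

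Libraries held between 15081922 and 23222704 counts. The marker lists of several cell types moved with the groups or with single libraries. Acinar genes of the exocrine pancreas, 32 in the list, took 21.4 to 36.9% of counts in exercise and 9.78 to 19.6% in sedentary libraries, and 18 of the 32 tested were higher in exercise. Intestinal epithelial genes, 30 in the list, took 0.0274 to 0.119% in exercise and 0.508 to 3.38% in sedentary libraries, and all 29 tested were lower in exercise. Over all genes tested, 2.44% were called higher and 11.4% lower in the edgeR fit described below. None of the acinar or intestinal markers was at 0 in either group. The 10 beta cell markers, insulin genes included, took 9.01 to 17.8% in exercise and 0.864 to 23.04% in sedentary libraries, with the 2 lowest shares, 0.864 and 4.06%, in sedentary 1 and 2. These 2 libraries also held the most intestinal transcripts, 2.34 and 3.38%, so the results that rest on them are given with and without them. The part of these cell types in the results below was not tested. In bulk islets, fewer cells of a type and less RNA per cell cannot be told apart.

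Several transporter genes were higher in exercise than in sedentary islets, and none was lower past the threshold. Of the 10 genes, all of which passed the filter on low counts, 5 rose (Slc7a1, Slc7a5, Slc7a11, Slc38a5 and Slc1a4), 0 fell and 5 did not pass (quasi-likelihood test of edgeR, adjusted over 15298 genes by Benjamini-Hochberg, threshold 0.05). Over all genes tested 2.44% were called higher and 11.4% lower, or 374 and 1745 genes. These calls use trimmed-mean (TMM) factors, and with library totals alone 159 genes were higher and 4408 lower, or 1.04 and 28.8%. At an unadjusted p under 0.05, 7 of the 10 transporters were higher and 0 lower, where 10.8% of all genes were higher and 22.5% lower. DESeq2 called 7 higher and 0 lower, where it called 7.19% of all genes higher and 17.3% lower. For limma-voom the counts were 4 and 0, against 1.16 and 2.22% of all genes. The median log2 fold change of the 10 was 0.79, against -0.00072 over all genes tested. In 7 of the 10, every exercise library lay above every sedentary library in TMM-scaled CPM, which held for 6.24% of all genes tested. The TMM factors were 0.669 to 1.06 in exercise and 1.07 to 1.20 in sedentary libraries, and a lower factor raises CPM. Every such comparison of libraries for single genes below uses this scale, and it was not repeated with library totals alone.

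**Figure D1:**
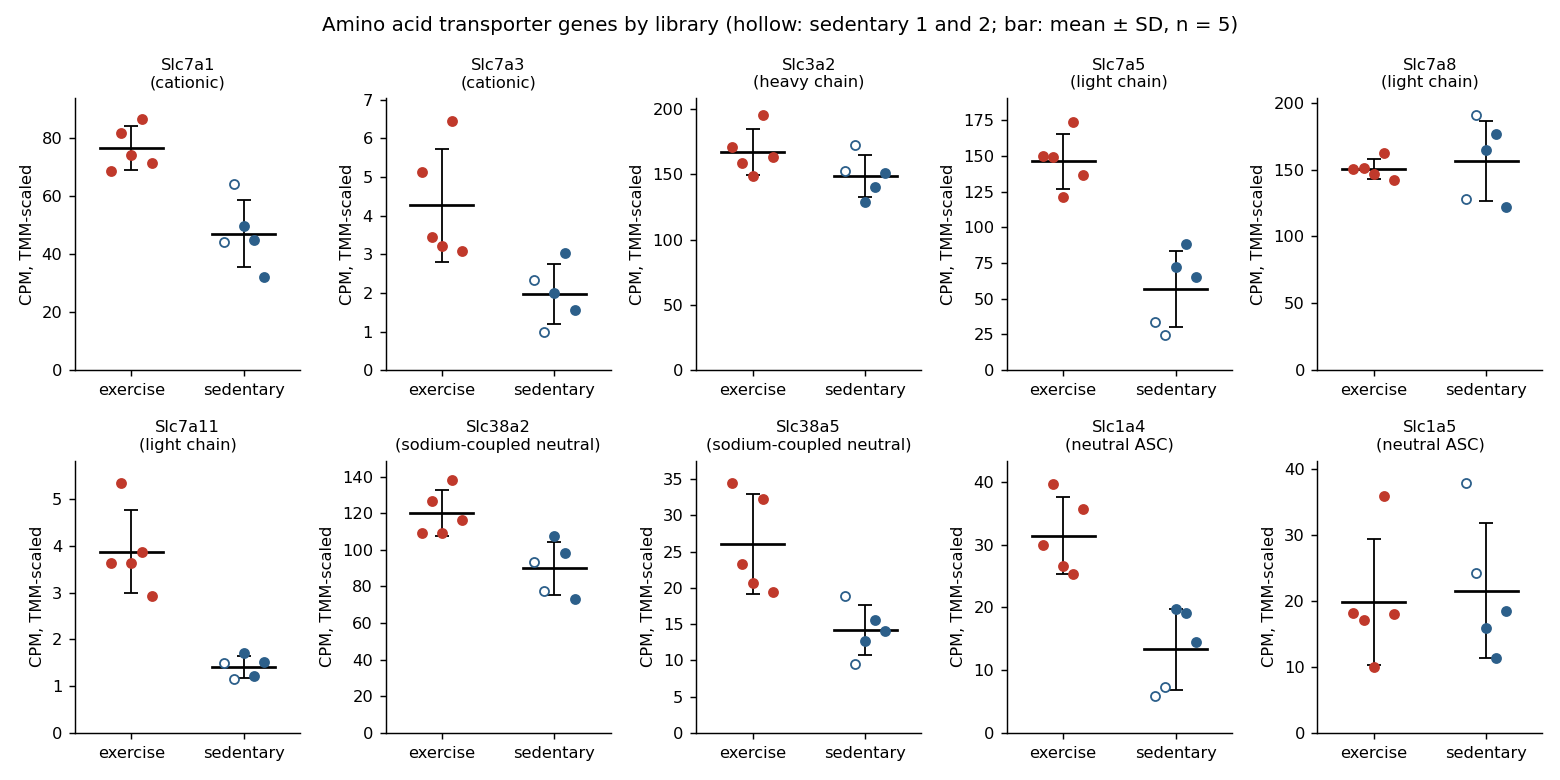
Level of each transporter gene (vertical axis, CPM, counts scaled to library size with TMM factors) in the 5 exercise libraries (left, red) and the 5 sedentary libraries (right, blue), with hollow points for sedentary 1 and 2 and bars for the mean ± SD. On this scale the groups did not overlap for 7 of the 10 genes and overlapped for Slc3a2, Slc7a8 and Slc1a5.

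The count of 5 depended on single libraries. It was 3 without exercise 6, 1 without exercise 7, 3 without exercise 8 and 2 without exercise 9, where 1.08, 0.847, 0.975 and 0.999% of all genes were called higher (edgeR). Without sedentary 2 and without sedentary 5 it was 3 each time, where 1.49 and 1.56% of all genes were higher. Without both sedentary 1 and 2 the same 5 genes rose, where 4.1% of all genes tested were called higher and 8.68% lower. Under library totals alone 2 rose, Slc7a5 and Slc7a11, and the median log2 fold change was 0.43 for the 10 transporters and -0.34 for all genes.

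The groups were also compared with the acinar or intestinal level as a covariate, taken as the mean log2 CPM over the genes of the list. Both levels followed the group (r squared 0.631 and 0.799), and edgeR then called 0 of all genes, so a gene that did not pass there is no exception. The median log2 fold change of the 10 transporters was 0.13 with the acinar covariate and 0.23 with the intestinal one, against 0.01 and 0.03 over all genes. Slc7a11 stood at 1.35 and 0.92 and Slc7a1 at 0.72 and 0.94 in these 2 fits. Slc7a5 and Slc1a4 stood at 1.00 and 1.53 with the acinar covariate. With the intestinal one they stood at -0.23 ± 0.39 and -0.13 ± 0.53 (SE), a change of sign within 1 SE of no change. Slc38a5 stood at 0.095 and 0.65.

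Of the cationic carriers, Slc7a1 (ENSMUSG00000041313) encodes CAT1, the broadly used carrier of arginine, lysine and ornithine. It had 68.7, 81.9, 74.2, 86.6 and 71.5 CPM in exercise 6 to 10, against 44.3, 64.1, 49.8, 45.01 and 32.1 CPM in sedentary 1 to 5. No library of one group reached into the other, and sedentary 2 came closest to the exercise libraries. Slc7a1 rose, with a log2 fold change of 0.70 (edgeR, SE 0.17, adjusted p = 0.0256) and means of 76.6 ± 7.45 CPM in exercise and 47.1 ± 11.5 CPM in sedentary islets (SD, n = 5 each). Its call was lost without exercise 7 or 8 or sedentary 1 (edgeR adjusted p up to 0.0668) and with library totals alone (log2 fold change 0.36, edgeR adjusted p = 0.184).

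Slc7a3 encodes CAT3, a cationic carrier of the same subfamily. It was low, with 53 to 100 counts per exercise library and 18 to 70 per sedentary library. On the scaled measure it had 5.14, 3.45, 3.22, 6.44 and 3.08 CPM in exercise 6 to 10, against 2.33, 0.983, 2.00, 3.02 and 1.57 CPM in sedentary 1 to 5. The lowest exercise library, exercise 10, lay just above the highest sedentary library, sedentary 4. Its log2 fold change of 1.10 ± 0.34 (SE) did not pass (edgeR adjusted p = 0.0541), and DESeq2 called it.

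The heavy chain gene Slc3a2 (ENSMUSG00000010095) encodes 4F2hc or CD98, to which LAT1, LAT2 and xCT are joined by a disulfide bond at the plasma membrane. It had 171, 159, 148, 195 and 163 CPM in exercise 6 to 10, against 153, 172, 129, 139.9 and 151 CPM in sedentary 1 to 5. The groups overlapped. The highest value was that of exercise 9, with the largest acinar share (36.9%), and the next that of sedentary 2, with the smallest (9.78%). A log2 fold change of 0.17 ± 0.13 (SE) did not pass (edgeR adjusted p = 0.357) and was -0.18 with library totals alone.

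Among the light chains, Slc7a5 (ENSMUSG00000040010) encodes LAT1, the exchanger that brings in leucine and other large neutral amino acids. It had 149.8, 149, 121, 174 and 136 CPM in exercise 6 to 10, against 33.9, 24.6, 72.5, 88.0 and 65.1 CPM in sedentary 1 to 5. Every exercise library was above every sedentary one, and sedentary 1 and 2 stood lowest. Slc7a5 rose by 1.36 ± 0.32 on the log2 scale (SE, edgeR adjusted p = 0.0214), a fold of 2.57. Without sedentary 1 and 2 the log2 fold change was 0.98 (edgeR adjusted p = 0.00212), against sedentary libraries of 65.1 to 88.0 CPM. The call was lost without exercise 7 or 9 (edgeR adjusted p up to 0.0558), and the log2 fold change was -0.23 ± 0.39 (SE) with the intestinal covariate.

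Slc7a8 encodes LAT2, a light chain with a broader range of neutral substrates than LAT1. It had 150.3, 151, 147, 163 and 142 CPM in exercise 6 to 10, against 128, 191, 164, 176 and 122 CPM in sedentary 1 to 5. The exercise libraries lay inside the sedentary range, from 122 to 191 CPM. Slc7a8 did not pass (log2 fold change -0.05, SE 0.15, adjusted p = 0.807 in edgeR). Its log2 fold change was 0.06 with upper-quartile scaling and -0.40 ± 0.18 (SE) with library totals alone (edgeR adjusted p = 0.126).

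Slc7a11 (ENSMUSG00000027737) encodes xCT, which exchanges intracellular glutamate for cystine, the source of cysteine for glutathione. It had the lowest mean CPM of the 10, with 59.6 to 82.1 estimated counts per exercise library and 21.0 to 31.1 per sedentary library. Scaled levels were 3.63, 5.34, 3.62, 3.86 and 2.93 CPM in exercise 6 to 10, against 1.49, 1.15, 1.72, 1.21 and 1.52 CPM in sedentary 1 to 5. The sedentary libraries lay close together, and sedentary 1 and 2 did not stand apart from the others. Slc7a11 rose by 1.45 ± 0.23 on the log2 scale (SE, edgeR adjusted p = 0.00900), a fold of 2.73. It was called with each of the 10 libraries left out in turn and under each of the 10 other settings without a covariate, with log2 fold changes between 1.09 and 1.58. Without sedentary 1 and 2 it was 1.41 (edgeR adjusted p = 0.00587).

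ATF4 binds, with a C/EBP partner, to a composite element whose core is written TGATGNAA. The core was searched on both strands of the RefSeq promoter windows of build GRCm38.p6, each of 300 bases from 250 before to 50 after an annotated start. Of the 10 genes, 7 had at least 1 window there, and Slc7a3, Slc7a5 and Slc1a5 had none. The core was found in 2 of the 7, Slc7a11 and Slc1a4, and in both it had the form TGATGCAA, which is a subset of TGATGNAA. Of 32851 windows of all genes 3.97% held TGATGNAA and 0.895% held TGATGCAA. Only 2 windows of all, that of Slc7a11 included, held TGATGCAA more than once. Both stretches, which carry these matches in genes that rose, are shown with the matches in capitals. On the strand shown, a match to the opposite strand reads TTGCATCA.
Slc7a11: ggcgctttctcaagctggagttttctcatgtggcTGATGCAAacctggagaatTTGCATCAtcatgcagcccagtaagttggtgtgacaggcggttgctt
Slc1a4: gcctccagcgtgcctcctgcgTTGCATCAt

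The Slc7a11 stretch is the minus strand of chr3:50443614-50443713 and covers the 100 bases before the start. Its 2 matches, 1 on each strand, begin 66 and 47 bases before the start. The Slc1a4 stretch is the minus strand of chr11:20332709-20332738, 30 bases around the start, and its match spans the start. No match in a window says only that these letters are not in it. Slc7a1 and Slc38a5, which also rose, held no match in their windows. Among 34 genes of the ATF4 target list described below that had a window, 14 held TGATGNAA and 11 held TGATGCAA.

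Of the sodium-coupled carriers, Slc38a2 encodes SNAT2, the system A carrier of small neutral amino acids that is induced when amino acids are scarce. It had 109, 126, 109, 138 and 117 CPM in exercise 6 to 10, against 93.6, 77.4, 107, 98.0 and 72.9 CPM in sedentary 1 to 5. Exercise libraries were all higher, but sedentary 3 came within a few CPM of exercise 6 and 8. Slc38a2, with a log2 fold change of 0.42 ± 0.14 (SE), did not pass (edgeR adjusted p = 0.0744). It passed with DESeq2, and was 0.06 with library totals alone.

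Slc38a5 (ENSMUSG00000031170) encodes SNAT5, a system N carrier of glutamine and other neutral amino acids that is known from mouse alpha cells, where it is induced by raised circulating amino acids. It had 34.5, 23.3, 20.7, 32.3 and 19.4 CPM in exercise 6 to 10, against 18.9, 9.56, 12.7, 15.6 and 14.1 CPM in sedentary 1 to 5. The highest values were in exercise 6 and 9, the 2 libraries with the largest acinar shares, 29.2 and 36.9%, and the highest sedentary value was in sedentary 1, with the largest sedentary acinar share, 19.6%. The alpha cell markers, 7 in the list, took 0.336 to 0.584% of counts in exercise and 0.0506 to 1.93% in sedentary libraries. Slc38a5 rose by 0.88 ± 0.23 on the log2 scale (SE, edgeR adjusted p = 0.0307) and by 0.90 without sedentary 1 and 2 (edgeR adjusted p = 0.0172). The call was lost without exercise 6, 7 or 9 or sedentary 2, 3 or 5 (edgeR adjusted p up to 0.0730), with library totals alone and with limma-voom.

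Both neutral carriers of the ASC type exchange alanine, serine and cysteine. Slc1a4 (ENSMUSG00000020142), encoding ASCT1, had 29.9, 39.6, 26.6, 25.4 and 35.7 CPM in exercise 6 to 10, against 5.92, 7.32, 19.7, 19.1 and 14.5 CPM in sedentary 1 to 5. All exercise libraries exceeded all sedentary ones, of which 1 and 2 were again lowest. Slc1a4 rose by 1.24 ± 0.33 on the log2 scale (SE, edgeR adjusted p = 0.0357), and by 0.85 without sedentary 1 and 2 (edgeR adjusted p = 0.0115). With 1 library left out it passed only without sedentary 1, 3 or 4, and the highest edgeR adjusted p was 0.0892. It did not pass with library totals alone (0.90, edgeR adjusted p = 0.0945), and its log2 fold change was -0.13 ± 0.53 (SE) with the intestinal covariate.

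Slc1a5 encodes ASCT2, the carrier known for glutamine uptake. It had 18.2, 17.1, 10.1, 35.9 and 18.02 CPM in exercise 6 to 10, against 37.9, 24.2, 15.9, 11.4 and 18.5 CPM in sedentary 1 to 5. Sedentary 1 and exercise 9 were high, exercise 8 and sedentary 4 low, and the groups overlapped over most of their range. Exercise 9 and sedentary 1 had the largest acinar shares of their groups, 36.9 and 19.6%. The log2 fold change of -0.12 ± 0.38 (SE) did not pass (edgeR adjusted p = 0.829), and it was 0.40 without sedentary 1 and 2 (edgeR adjusted p = 0.474).

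**Figure D2:**
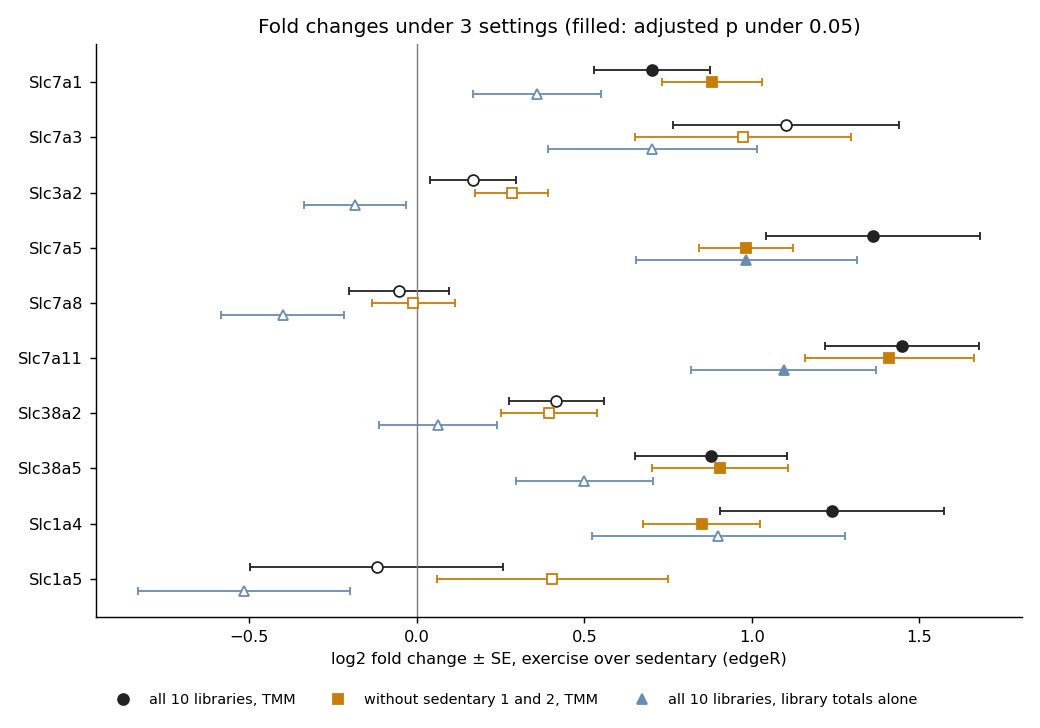
Log2 fold change of exercise over sedentary (horizontal axis, ± SE, edgeR) for each transporter gene with all 10 libraries and TMM factors (circles), without sedentary 1 and 2 (squares) and with library totals alone (triangles), filled where adjusted p was under 0.05. Slc7a5 and Slc7a11 were past the threshold under all 3 settings, and Slc7a1, Slc38a5 and Slc1a4 under the first and second.

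Differences between 2 transporters within a library do not depend on how libraries are scaled, apart from the prior count of 2 added before taking log2, which weighs more in genes of low counts. They were compared between the groups for 7 pairs, each a pair of paralogs or a light chain with its heavy chain. The pairs were chosen with earlier results of these data known, and some share a gene. Adjustment over 7 pairs does not account for that choice, so the p-values are no independent support for the single-gene calls. LAT1 against LAT2 (Slc7a5 minus Slc7a8, in log2 CPM) stood at 0.00, -0.02, -0.28, 0.10 and -0.06 in exercise 6 to 10, against -1.91, -2.95, -1.18, -1.002 and -0.91 in sedentary 1 to 5. The groups did not overlap, and the exercise libraries lay near equal counts of both genes. The difference between the groups was 1.54 (two-sided exact permutation, p = 0.00794, which is the lowest possible with 5 against 5, adjusted p = 0.0185 over 7 pairs), and 0.98 without sedentary 1 and 2 (exact permutation test, adjusted p = 0.0417).

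LAT1 against the heavy chain (Slc7a5 minus Slc3a2) averaged -0.20 ± 0.08 in exercise and -1.54 ± 0.92 in sedentary islets (SD, n = 5 each, exact permutation test, adjusted p = 0.0185). The difference of 1.34 was 0.70 without sedentary 1 and 2. xCT against the heavy chain (Slc7a11 minus Slc3a2) averaged -5.41 ± 0.34 in exercise and -6.62 ± 0.35 in sedentary islets, a difference of 1.20 (exact permutation test, adjusted p = 0.0185). It was 1.06 without sedentary 1 and 2, and 1.25 with a prior count of 0.5 in place of 2. These 3 calls were lost with 1 exercise library left out, namely 6, 7 or 9 for LAT1 against LAT2 and for xCT against the heavy chain and any of the 5 for LAT1 against the heavy chain, each at an exact permutation adjusted p of 0.0556. With medians in place of means they were lost too (exact permutation test, adjusted p = 0.111 each).

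LAT2 against the heavy chain (Slc7a8 minus Slc3a2) averaged -0.15 ± 0.10 in exercise and 0.05 ± 0.32 in sedentary islets, and did not pass (exact permutation test, adjusted p = 0.241). ASCT2 against ASCT1 (Slc1a5 minus Slc1a4) averaged -0.76 ± 0.75 in exercise and 0.73 ± 1.42 in sedentary islets. The difference of -1.49 did not pass (exact permutation test, adjusted p = 0.139), so a different response of the 2 paralogs was not shown. Without sedentary 1 and 2 it was -0.52 (exact permutation test, adjusted p = 0.417). SNAT2 against SNAT5 (Slc38a2 minus Slc38a5) differed by -0.44 and CAT1 against CAT3 (Slc7a1 minus Slc7a3) by -0.36, and neither passed (exact permutation test, adjusted p = 0.167 and 0.508). Without sedentary 1 and 2 these differences were -0.46 and -0.039.

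**Figure D3:**
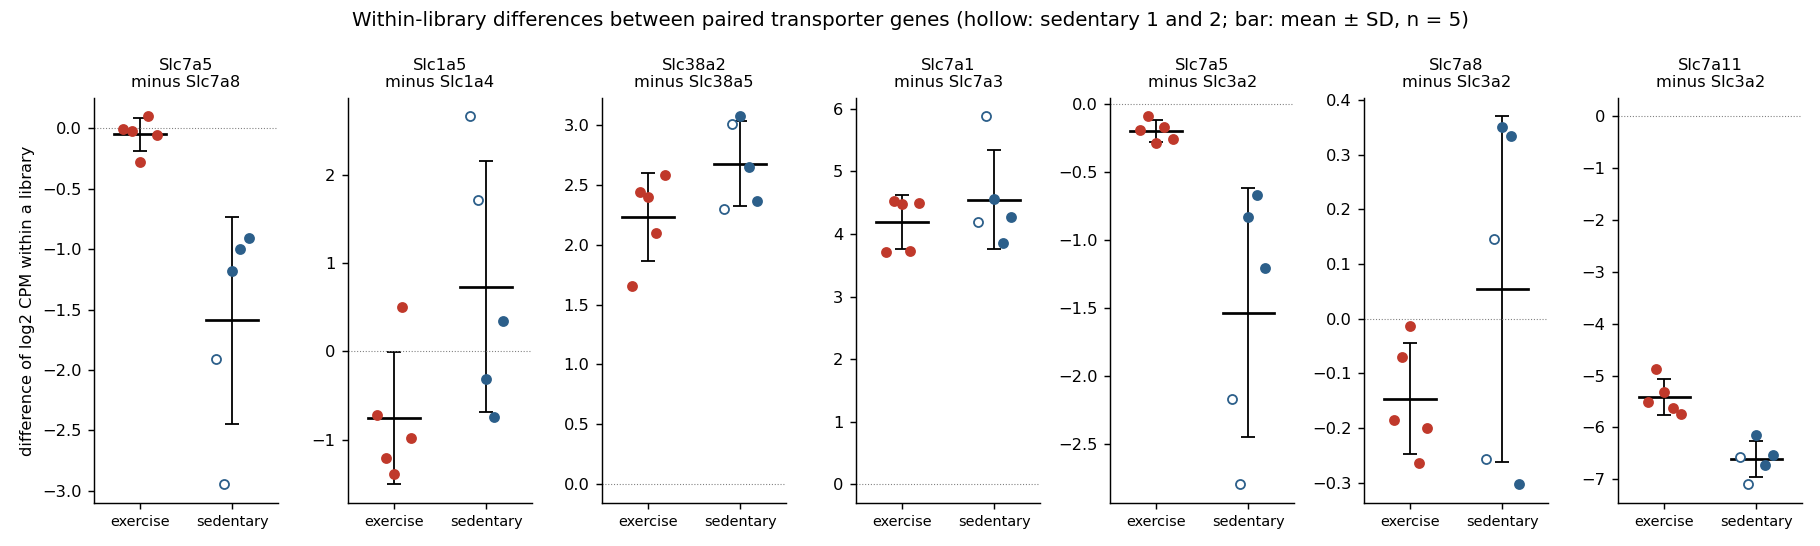
Difference of log2 CPM between the 2 genes of each pair within a library (vertical axis, its own scale in each panel) in the 5 exercise libraries (left, red) and 5 sedentary libraries (right, blue), with hollow points for sedentary 1 and 2 and bars for the mean ± SD. The groups did not overlap for Slc7a5 minus Slc7a8, Slc7a5 minus Slc3a2 and Slc7a11 minus Slc3a2.

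Levels of different genes can be set side by side only per length. CPM was divided by the length of the longest protein-coding transcript in GENCODE M21, an annotation that may not be the one behind the counts. Slc3a2 stood highest in both groups, at 59.4 ± 6.26 CPM per kb in exercise and 52.9 ± 5.73 in sedentary islets (SD, n = 5 each). In exercise islets Slc7a5 (41.5 CPM per kb) and Slc7a8 (36.9) followed with overlapping ranges, then Slc38a2 (25.7). Slc38a5 (13.1), Slc7a1 (10.7), Slc1a4 (8.01) and Slc1a5 (7.18) each overlapped the neighbour in this order. Slc7a3 (1.55) and Slc7a11 (0.420) stood apart at the low end. Sedentary islets had Slc7a8 (38.3 CPM per kb), whose range overlapped that of Slc3a2, then Slc38a2 (19.3) and Slc7a5 (16.2), which overlapped. Slc1a5 (7.81), Slc38a5 (7.15), Slc7a1 (6.56) and Slc1a4 (3.39) came next in sedentary islets with overlapping neighbours, and Slc7a3 (0.720) and Slc7a11 (0.154) were lowest without overlap.

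**Figure D4:**
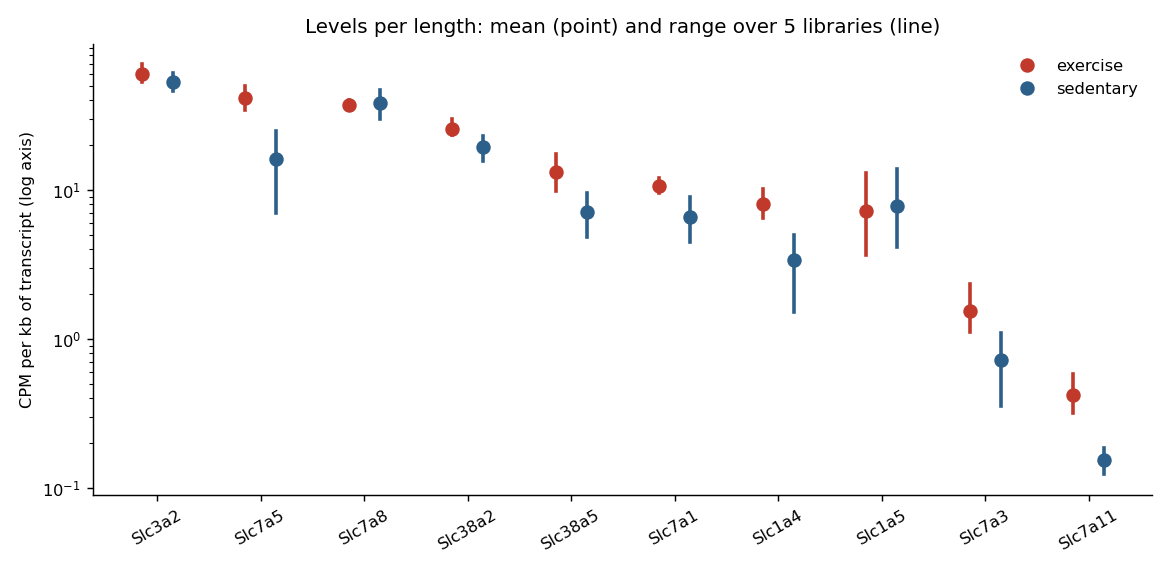
Level of each transporter gene in CPM per kb of its longest annotated protein-coding transcript (vertical log axis), as the mean (point) and the range over 5 exercise libraries (red, left) and 5 sedentary libraries (blue, right). Slc3a2 stood highest and Slc7a11 lowest in both groups, and Slc7a5 came next after Slc3a2 in exercise islets but below Slc7a8 and Slc38a2 in sedentary islets.

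Part of the ATF4 targets that are no transporters rose as well. A list of 40 such targets held enzymes of amino acid synthesis, aminoacyl-tRNA synthetases and stress regulators. Of the 39 tested, 18 rose, 0 fell and 21 did not pass (edgeR), where 2.44 and 11.4% of all genes were called. The median log2 fold change was 0.60, and 23 of the 39 were higher in every exercise library than in any sedentary library, against 6.24% of all genes tested. At an unadjusted p under 0.05, 26 were higher and 1 lower, against 10.8 and 22.5% of all genes. Without sedentary 1 and 2, 40 were tested, of which 26 rose and 0 fell, where 4.1 and 8.68% of all genes were called, and the median was 0.46. With the acinar covariate the median of the targets was 0.53 and with the intestinal one 0.13, against 0.01 and 0.03 over all genes. In these 2 fits 31 and 24 of the 39 targets were above 0, and no gene passed. Of these targets DESeq2 called 25 higher and 1 lower, where it called 7.19 and 17.3% of all genes. Limma-voom called 15 and 0, against 1.16 and 2.22% of all genes. With all libraries and no covariate, 35 of the 39 targets were above 0 (edgeR). Aldh18a1, Ddit3 and Wars, named after their values were seen, were below 0 and did not pass (-0.39, -0.24 and -0.02, edgeR adjusted p = 0.326, 0.368 and 0.910). The gene lower at an unadjusted p under 0.05 and with DESeq2 was Cth, of cysteine synthesis from methionine, chosen after its values were seen. It had 5.32 to 18.5 CPM in exercise and 10.2 to 95.2 CPM in sedentary libraries, with 50.02 and 95.2 in sedentary 1 and 2 (log2 fold change -1.98, edgeR adjusted p = 0.0622; -0.59 without those 2 libraries).

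The 6 targets of smallest p all rose (edgeR adjusted p = 0.00900 for each). Nupr1, a stress-induced chromatin regulator that is also abundant in acinar cells, had 1015, 751, 703, 1366 and 608 CPM in exercise 6 to 10, against 210.5, 182, 313, 283 and 235 CPM in sedentary 1 to 5. Its highest values were in exercise 9 and 6, the libraries with the largest acinar shares. Eif4ebp1, the inhibitor of cap-dependent translation 4E-BP1, had a log2 fold change of 1.33 and Phgdh, the enzyme that opens serine synthesis, one of 1.24.

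Asns, asparagine synthetase, had 180.1, 183, 154, 232 and 164 CPM in exercise 6 to 10, against 58.3, 51.8, 94.1, 99.8 and 88.8 CPM in sedentary 1 to 5. Sedentary 1 and 2 were lowest, as for Slc7a5 and Slc1a4, and the groups did not overlap. The log2 fold change of 1.22 was 0.98 without those 2 libraries (edgeR adjusted p = 0.00200). It was 0.88 with the acinar covariate and 0.13 with the intestinal one. The synthetase genes Cars, for cysteine (1.08), and Mars1, for methionine (0.75), completed the 6. With the intestinal covariate Nupr1 stood at 0.95, Eif4ebp1 at 0.88, Phgdh at 0.52, Cars at 0.50 and Mars1 at 0.22. The call of Mars1 was lost with library totals alone (0.40, edgeR adjusted p = 0.132). Under that scaling 9 targets rose and 1 fell, where 1.04% of all genes were higher and 28.8% lower.

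Of 10 regulators of these genes, 2 rose, 1 fell and 7 did not pass (edgeR), where 2.44% of all genes were called higher and 11.4% lower. The share that fell was therefore near that of all genes. Eif2ak4, encoding GCN2, the eIF2alpha kinase that senses uncharged tRNA, had 25.3, 24.4, 25.9, 29.1 and 22.02 CPM in exercise 6 to 10, against 8.37, 8.74, 13.4, 16.4 and 11.5 CPM in sedentary 1 to 5. Every exercise library was above every sedentary one, and the log2 fold change of 1.12 (edgeR, SE 0.20, adjusted p = 0.00900) was 0.90 without sedentary 1 and 2 (edgeR adjusted p = 0.00259). With the acinar covariate the log2 fold change of Eif2ak4 was 0.89 and with the intestinal one 0.26. Eif2ak3, encoding PERK, the eIF2alpha kinase of the endoplasmic reticulum, rose by 0.80 ± 0.22 (SE, edgeR adjusted p = 0.0373). Its exercise libraries lay between 65.9 and 124 CPM and the sedentary ones between 37.7 and 65.8, and it did not pass without sedentary 1 and 2 (0.63, edgeR adjusted p = 0.0833), with library totals alone or with limma-voom. Leaving out exercise 7, 8 or 9 or sedentary 1, 2 or 5 also ended its call (edgeR adjusted p up to 0.0850), and with the intestinal covariate it was -0.34 ± 0.28 (SE).

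Atf4 itself, whose protein is controlled largely at translation, had 239, 206, 203, 238 and 196 CPM in exercise 6 to 10, against 114, 160.4, 205, 228 and 222 CPM in sedentary 1 to 5. Sedentary 3 to 5 lay within the exercise range and sedentary 1 and 2 below it. The log2 fold change of 0.22 ± 0.19 (SE) did not pass (edgeR adjusted p = 0.416). It was 0.01 without sedentary 1 and 2, -0.15 with library totals alone and -0.47 with the intestinal covariate.

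Nfe2l2 encodes NRF2, the oxidative stress factor that is also known to induce Slc7a11. The RNA of Nfe2l2 was lower in exercise, and the activity of NRF2 protein was not measured. Nfe2l2 had 30.6, 25.8, 32.0, 36.4 and 31.5 CPM in exercise 6 to 10, against 195, 249, 58.1, 41.7 and 51.5 CPM in sedentary 1 to 5. The groups did not overlap, and sedentary 1 and 2, with the most intestinal transcripts, were far above the others. Nfe2l2 fell, with a log2 fold change of -1.93 (edgeR adjusted p = 0.0305), and -0.67 without those 2 libraries (edgeR adjusted p = 0.00980). The call was lost without any 1 exercise library and without sedentary 1 or 2 (edgeR adjusted p up to 0.0797), and with limma-voom. With the intestinal covariate the log2 fold change of Nfe2l2 was 0.88 ± 0.78 (SE). Myc, a transcription factor known to induce several amino acid carriers, had 20.5 to 47.1 CPM in exercise and 13.7 to 26.6 CPM in sedentary libraries and did not pass (log2 fold change 0.58, edgeR adjusted p = 0.150).

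Other amino acid transporters of the plasma membrane and lysosome, in a chosen list, did not share one direction. Of 44 listed genes, 32 passed the filter. Of these, 2 rose, 9 fell and 21 did not pass (edgeR), where 2.44% of all genes were called higher and 11.4% lower. At an unadjusted p under 0.05, 9 were higher and 10 lower, against 10.8 and 22.5% of all genes. Their median log2 fold change was 0.34, and 6 were higher and 8 lower in every exercise library than in any sedentary library, against 6.24 and 11.4% of all genes tested. The 4 of smallest p, carriers known from the apical or basolateral membrane of intestinal and kidney epithelium, all fell (edgeR adjusted p = 0.00900 for each). Slc6a20a, of imino acid uptake, had 2.19 to 5.87 CPM in exercise libraries, against 188, 241, 52.7, 31.9 and 38.1 CPM in sedentary 1 to 5, a log2 fold change of -4.75. Slc6a19, encoding the brush border neutral carrier B0AT1, had 4.57 to 14.4 CPM in exercise and 42.6 to 168 CPM in sedentary libraries (-3.33).

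Both subunit genes among these 4 were lower too. Slc3a1, the heavy chain rBAT of cystine and cationic uptake, had 1.16 to 3.47 CPM in exercise and 11.6 to 95.0 CPM in sedentary libraries (log2 fold change -4.01). Slc7a7, a light chain partner of Slc3a2 in the exit of cationic amino acids from epithelium, had 2.86 to 6.09 CPM in exercise and 14.1 to 127 CPM in sedentary libraries (-3.59). Sedentary 1 and 2 were highest for all 4, as for the intestinal markers. Without them the log2 fold changes were -3.29 for Slc6a20a, -2.33 for Slc6a19, -2.57 for Slc3a1 and -2.10 for Slc7a7, each past the threshold (edgeR adjusted p = 0.000975, 0.00134, 0.00127 and 0.00110). With the intestinal covariate they were -0.59 and -0.31 for Slc6a20a and Slc6a19, and 0.068 ± 0.41 and 0.21 ± 0.64 (SE) for Slc3a1 and Slc7a7. The sign of Slc3a1 and Slc7a7 thus changed, within 1 SE of no change. Slc3a1 and Slc7a7 did not pass with limma-voom (adjusted p = 0.0556 and 0.0592).

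The 2 that rose were named after their values were seen. Slc6a9, encoding the glycine carrier GLYT1, had 36.1, 29.6, 19.6, 52.8 and 24.2 CPM in exercise 6 to 10, against 16.4, 11.7, 14.5, 13.8 and 8.03 CPM in sedentary 1 to 5. All exercise libraries were above all sedentary ones, and exercise 9 and 6, the highest, also had the largest acinar shares, 36.9 and 29.2%. It rose by 1.33 ± 0.28 on the log2 scale (SE, edgeR adjusted p = 0.0148) and its log2 fold change was 0.35 in the fit with the acinar covariate, in which no gene passed. Slc38a6, a carrier of the sodium-coupled neutral family, had 14.4 to 17.6 CPM in exercise and 7.05 to 13.1 CPM in sedentary libraries (log2 fold change 0.65, edgeR adjusted p = 0.0322). Its call was lost without any 1 exercise library or sedentary 1 (edgeR adjusted p up to 0.0844), with library totals alone, with limma-voom and with no filter on low counts.

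**Figure D5:**
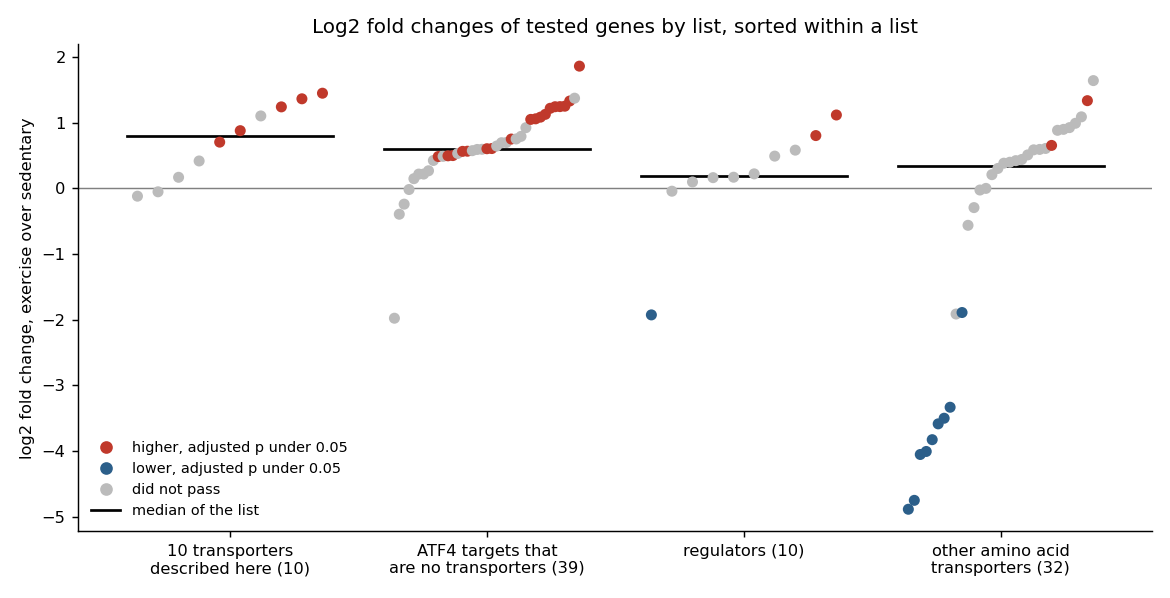
Log2 fold change of exercise over sedentary (vertical axis, edgeR, all 10 libraries) of each tested gene, sorted within its list, red where higher and blue where lower past an adjusted p of 0.05 and grey otherwise, with the list's median as a black line. Of the 10 transporters 5 rose and of 39 ATF4 targets 18 rose with 0 lower in either, while of 32 other transporters 2 rose and 9 fell. Over all genes tested 2.44% were higher and 11.4% lower.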

How the data were processed

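Per the labels' protocols, islet RNA was purified on columns for small samples and made into stranded mRNA libraries. The authors deposited estimated counts per Ensembl gene for each of 10 libraries. Of tools, the submitters' processing notes list fastp and kallisto with no version. Not given in the sources used here are build, annotation, strand setting and how transcripts were summed. No exon of the 10 transporters overlapped another gene in GENCODE M21, and none of the 10 had values equal to those of another gene. Estimated counts, 12.6% of them not whole (tolerance 1e-06), were rounded. No pair of libraries agreed within sampling noise (smallest chi-square per degree of freedom 9.59 over 45 pairs).

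In R 4.3.3, edgeR 4.0.16 was fitted to all 10 libraries after its default filter (minimum count 10, minimum total 15), with TMM factors between 0.669 and 1.20 and Benjamini-Hochberg adjustment over 15298 genes. The SE is the log2 fold change divided by the square root of F. For CPM, library sizes were multiplied by TMM factors, and a prior count of 2 was added before taking log2. Pairs were compared by exact two-sided permutation over libraries. Alternatives used other scalings and filters, DESeq2 1.42.0, limma 3.58.1, robust edgeR, covariates and fewer libraries. The fit was checked on simulated counts with known changes.

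The transporters, pairs and lists were chosen with earlier results of these data known. Named were the 10 transporters, the 4 genes of smallest p of the other transporters and of the regulators, the 6 of the ATF4 targets, and Atf4, Nfe2l2 and Myc; other genes are said to be chosen after their values were seen. Symbols came from a table of gene names, with promoter sequences from RefSeq. Sedentary 1 and 2 were left out together because of their low insulin and high intestinal levels in those earlier results.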

Additional observations from a re-analysis of the deposited data

Results flagged for a closer look

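The Myc level in exercise 9, 47.1 CPM, stood apart from the other exercise libraries, of which the nearest had 27.7 and the lowest 20.5 CPM. Exercise 9 had the largest acinar share, 36.9%, and the part of acinar cells in this value was not tested. It was the only value set apart among 74 groups of 5 libraries examined (37 genes and gene pairs in each of the 2 groups), where chance sets apart about 1 in 20.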

How the results depend on the processing

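Of the log2 fold changes of the 10 transporters under the alternatives, 174 kept direction and side of the threshold, 30 kept direction but lost the call, 4 gained one and 12 changed sign, of which 2 also lost a call. With library totals alone, 159 genes were higher and 4408 lower, with 2 transporters, 1 other transporter, 9 ATF4 targets and 1 regulator higher and 1 target lower, and Slc3a2 stood at -0.18 and Atf4 at -0.15. This scaling moved the median of all genes to -0.34, and upper-quartile scaling to 0.11, where Slc7a8 was 0.063 and Slc1a5 0.0097. DESeq2 called 1097 genes higher and 2642 lower, 6 other transporters higher and 1 target lower. Limma-voom called 177 higher and 339 lower, with 1 other transporter higher and 3 lower, and 1 regulator higher and 0 lower. With no filter on low counts 1 other transporter was higher. Without sedentary 1 and 2, 644 genes, 4 other transporters and 1 regulator were higher, and Slc1a5 was 0.40. With the acinar or the intestinal level as a covariate edgeR called 0 genes in either direction (1856 and 305 at an unadjusted p under 0.05), and so 0 of each list. The acinar covariate turned Slc7a3 to -0.019. The intestinal covariate turned Slc7a5 to -0.23, Slc1a4 to -0.13, Slc1a5 to 0.36, Slc3a1 to 0.068, Slc7a7 to 0.21, Nfe2l2 to 0.88, Eif2ak3 to -0.34, Atf4 to -0.47, Slc7a2 to -1.04, Slc38a4 to -0.76 and Cth to 0.65. The cause of these changes was not tested.

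With 1 library left out, between 132 and 889 genes were higher and between 800 and 2721 lower. The 10 transporters then held 1 to 6 higher, the other transporters 1 to 5 higher, the ATF4 targets 0 to 1 lower and the regulators 1 to 2 higher and 0 to 1 lower. Slc7a8 ranged from -0.13 to 0.027 and Slc1a5 from -0.39 to 0.18. The within-library differences ranged from 1.20 to 1.71 for Slc7a5 minus Slc7a8, 1.02 to 1.55 for Slc7a5 minus Slc3a2 and 1.07 to 1.32 for Slc7a11 minus Slc3a2. Permuting medians gave 1.16, 1.02 and 1.06 for these 3 (exact permutation adjusted p = 0.111 each) and 0.21 for Slc7a1 minus Slc7a3. No paired analysis was possible because the labels give no pairing of libraries. Slc7a11 and Slc7a3 rest on few counts, which limits their precision.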

Other observations

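Slc38a4 and Slc7a2, a further pair of carriers, had their lowest levels in sedentary 1 and 2 and were chosen after their values were seen. Slc38a4, encoding the sodium-coupled carrier SNAT4, had 348, 396, 389.5, 437 and 244 CPM in exercise 6 to 10, against 11.7, 50.1, 178, 215 and 128 CPM in sedentary 1 to 5. The groups did not overlap, and the spread within the sedentary group was wide. The log2 fold change of 1.64 did not pass with all libraries (edgeR adjusted p = 0.0911) and was 1.09 without sedentary 1 and 2, where it passed (edgeR adjusted p = 0.00968).

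Slc7a2, encoding the cationic carrier CAT2 and also among the alpha cell markers used here, had 179 to 236 CPM in exercise libraries, against 17.2, 44.1, 149, 176 and 108 CPM in sedentary 1 to 5. Its lowest levels were in sedentary 1 and 2, with the lowest alpha cell shares, 0.0506 and 0.224%, and the lowest beta cell shares, 0.864 and 4.06%. Sedentary 5, with the largest alpha cell share, 1.93%, had 108 CPM. The exercise libraries had alpha cell shares of 0.336 to 0.584%. The part of these cell types in Slc7a2 was not tested. The log2 fold change of 1.09 did not pass (edgeR adjusted p = 0.158), and was 0.57 without sedentary 1 and 2 (edgeR adjusted p = 0.0535).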
